A study of Homo sapiens with 4 samples.

Results

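The 9 genes described here encode enzymes of nucleotide synthesis and are RRM1, RRM2, TYMS, TK1, DUT, CAD, PPAT, GART, and IMPDH2. They were taken by name from the deposited table of 20372 genes, as enzymes of this pathway and with earlier results of these data known, and 9 of 9 had enough counts to be tested. The RNA came from TPC1, a long-established line of human papillary thyroid carcinoma with a CCDC6-RET fusion, exposed to the selective RET inhibitor BLU6864 for 6 h or for 24 h. Each time point had 2 libraries, and the total count of a library lay between 23917056 and 27457040. Every library came from inhibitor-treated cells grown in DMEM with FBS, and a vehicle group was not analysed here, so the effects of the inhibitor and of longer culture cannot be told apart. The labels give the dose as 100 µM and the methods as 100 nM, and those of the 24 h libraries alone carry the mark re-analysis, a difference that cannot be told apart from that of time.

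Cells make ribonucleotides either from small precursors, the de novo route, or by recovering bases and nucleosides, the salvage route. CAD opens the pyrimidine route, PPAT and GART act early in the purine route, and IMPDH2 turns the purine intermediate IMP toward guanine nucleotides. Ribonucleotide reductase, built of a large subunit (RRM1) and a small subunit (RRM2), then makes the deoxynucleotides that DNA synthesis consumes. DUT removes dUTP and yields dUMP, TYMS methylates dUMP to dTMP, and TK1 recovers thymidine in the cytosol. RRM2, TYMS, and TK1 are known as genes that proliferating cells express most around S phase, while the de novo ribonucleotide enzymes also serve RNA synthesis.

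The direction of change between 6 h and 24 h differed between these roles, with PPAT as the exception. The 5 genes of the deoxynucleotide steps were lower at 24 h, and RRM2 fell furthest, to 6.60% of its 6 h level. CAD, GART, and IMPDH2 were higher at 24 h, by 1.77-fold, 1.52-fold, and 1.44-fold. PPAT was at 88.4% of its 6 h level, a difference at the edge of the test. In total, 6 of 9 genes were lower and 3 higher at an adjusted P under 0.05 from edgeR's quasi-likelihood test, beside 32.6% and 33.0% of the 12876 genes tested. Since calls are that common in these libraries, a call says less than its size. A fall of more than 2-fold (log2 change from 6 h to 24 h under -1) with the same adjusted P was found for 4 of the 9 genes, RRM1, RRM2, TYMS, and TK1, beside 8.50% of all genes tested. With the cutoffs of the methods, stated there for lower genes and applied here in both directions (a log2 change beyond 0.5, P under 0.01 before adjustment), 5 of the 9 genes were lower and 3 higher, beside 17.7% and 17.4% of all genes tested. Both 24 h values lay below both 6 h values for 6 of 9 genes and above them for 3, beside 40.8% and 41.0% of all genes.

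To show what lies before the starts of these genes, the last 150 bases upstream of the RefSeq gene start (GRCh38.p14) are printed for 6 members that moved clearly, 4 of them lower and 2 higher at 24 h, and for a downstream start of DUT. The sequences were taken from a table that holds 8 of the 9 members. They read 5′ to 3′ on the strand of the gene, and capitals mark matches on either strand to CCAAT, the box bound by the factor NF-Y, or to TTTNNCGC, a simple form of the E2F site. The windows are chr2:10122589-10122738 (plus strand) for RRM2, chr17:78187053-78187202 (minus strand) for TK1, chr11:4094535-4094684 (plus strand) for RRM1, chr18:657503-657652 (plus strand) for TYMS, chr15:48332047-48332196 (plus strand) for DUT, chr21:33542118-33542267 (minus strand) for GART, and chr2:27217219-27217368 (plus strand) for CAD.
RRM2: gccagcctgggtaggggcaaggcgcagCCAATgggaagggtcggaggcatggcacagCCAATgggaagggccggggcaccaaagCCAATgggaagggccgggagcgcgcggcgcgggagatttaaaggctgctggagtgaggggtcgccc
TK1: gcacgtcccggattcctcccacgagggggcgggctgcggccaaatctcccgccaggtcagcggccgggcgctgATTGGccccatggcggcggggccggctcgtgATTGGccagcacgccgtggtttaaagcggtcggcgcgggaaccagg
RRM1: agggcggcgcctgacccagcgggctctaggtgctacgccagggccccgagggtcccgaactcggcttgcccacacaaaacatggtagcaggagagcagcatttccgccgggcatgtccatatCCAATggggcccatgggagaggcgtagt
TYMS: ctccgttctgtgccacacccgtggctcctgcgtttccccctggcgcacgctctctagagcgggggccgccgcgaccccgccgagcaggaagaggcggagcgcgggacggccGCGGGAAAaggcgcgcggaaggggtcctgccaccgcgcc
DUT, downstream start: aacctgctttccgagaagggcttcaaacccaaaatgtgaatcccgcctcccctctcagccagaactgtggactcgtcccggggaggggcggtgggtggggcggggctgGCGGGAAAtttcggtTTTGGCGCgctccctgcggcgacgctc
GART: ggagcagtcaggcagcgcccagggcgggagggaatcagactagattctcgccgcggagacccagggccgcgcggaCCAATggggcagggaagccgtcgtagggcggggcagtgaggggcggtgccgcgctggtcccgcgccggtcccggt
CAD: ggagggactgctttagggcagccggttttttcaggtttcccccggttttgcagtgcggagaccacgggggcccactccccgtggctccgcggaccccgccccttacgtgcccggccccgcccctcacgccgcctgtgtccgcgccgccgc

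The window of RRM2 held 3 CCAAT boxes on the strand of the gene, starting 123, 93, and 66 bases before the start. Of 35114 RefSeq starts, 23.5% had at least 1 match to CCAAT in a window of this length. For 2 or more matches the share was 5.97%, and for 3 or more it was 1.24%. TK1 had 2 on the opposite strand, at 77 and 46 bases, RRM1 had 1 at 28 bases, and GART, which was higher at 24 h, had 1 at 75 bases. TTTNNCGC was found at 39 bases before the start of TYMS, on the opposite strand, and at none of the other 7 starts nearest to the main transcript, against 3.69% of all starts. DUT has 4 starts in the table. The window at the start nearest to its main transcript, which is not printed, held neither CCAAT nor TTTNNCGC. At the most downstream of them, looked at after the others were seen, TTTNNCGC occurred at 42 and 27 bases, and 0.216% of all starts had 2 or more matches. This share is per start and makes no allowance for choosing the start or the number of matches after the sequences were seen. That downstream window also held TTTGAA at 129 bases, on the opposite strand, and GGGCGG at 65 and 53 bases. The E-box CACGTG and the CHR element TTTGAA, both searched on either strand, matched none (0) of the 8 main windows, and were present at 4.57% and 7.33% of all starts. GGGCGG, the GC box, was in 5 of the 8 windows and in 36.8% of all starts. Matches to each pattern were counted separately, whether or not they overlapped another. The CAD window held neither CCAAT nor TTTNNCGC and so has no capitals, and the RRM1 entry starts 114 bases from the start of its main transcript. A match is a run of letters and not a shown binding site, and the counts do not say which start the cells used.

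RRM2 (ENSG00000171848, chromosome 2 of hg19 from 10262455 to 10271545) encodes the small subunit that carries the radical of ribonucleotide reductase. It had 2712 and 2690 normalized counts at 6 h, against 172 and 184 at 24 h. The replicates lay close together and the time points far apart, with means of 2701 ± 15.3 at 6 h against 178 ± 8.18 at 24 h (SD, n = 2). The log2 change was -3.92 (standard error, SE, 0.0878, edgeR adjusted P = 3.07e-23). This was the 112th lowest of 12876 log2 changes.

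RRM1 (ENSG00000167325, chromosome 11 of hg19 from 4115937 to 4160106), the large subunit that holds the active site, had 3318 and 3002 normalized counts at 6 h and 976 and 943 at 24 h. Both 24 h libraries were thus far below both 6 h libraries. Its log2 change was -1.72 (SE 0.0754, edgeR adjusted P = 6.30e-17), a smaller fall than that of its partner. Because library scaling cancels in a ratio of 2 genes, the subunits were also compared inside each library, as counts per base of the longest protein-coding transcript. The RRM2 to RRM1 ratio was 0.699 and 0.767 at 6 h and 0.151 and 0.167 at 24 h, so it fell 4.61-fold. With 2 libraries against 2, the two-sided exact permutation test cannot go below P = 0.333, which is the value found here (0.333 after adjustment over 3 ratios).

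RRM2B, which encodes an alternative small subunit known for its induction by p53 and for its part in resting cells, was already the more abundant per length at 6 h. It too was lower at 24 h, going from 5455 ± 182 to 3838 ± 76.8 normalized counts (SD, n = 2; log2 change -0.51, SE 0.0709, edgeR adjusted P = 6.05e-07). The RRM2 to RRM2B ratio per length went from 0.662 and 0.626 to 0.0592 and 0.0614, a fall of 10.7-fold (exact permutation P = 0.333, the smallest possible). At 24 h the small subunit message was therefore mostly RRM2B in both libraries.

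TYMS (ENSG00000176890, chromosome 18 of hg19 from 657604 to 673578) encodes thymidylate synthase. It had 1272 and 1209 normalized counts at 6 h and 173 and 228 at 24 h. The time points did not overlap, although the 24 h libraries differed more from each other than those of RRM2 did. The log2 change was -2.63 (SE 0.104, edgeR adjusted P = 7.21e-18). ENOSF1, which overlaps TYMS by 3255 bases in the deposited table, had a log2 change of 0.24 (SE 0.0782). The methods describe a stranded library kit and the labels a TruSeq RNA protocol without naming strand, and whether the counting used strand is not given in the sources used here, so reads of the shared stretch cannot be assigned with certainty.

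TK1 (ENSG00000167900, chromosome 17 of hg19 from 76170160 to 76183314), the cytosolic thymidine kinase, had 1620 and 1685 normalized counts at 6 h and 452 and 453 at 24 h. Its log2 change was -1.87 (SE 0.0803, edgeR adjusted P = 3.92e-17). TK2, the mitochondrial thymidine kinase, which acts outside S phase as well, changed in the opposite direction, from 592 ± 27.8 (SD, n = 2) to 816 ± 79.7 normalized counts (log2 change 0.46, SE 0.0893, edgeR adjusted P = 6.00e-05). The TK1 to TK2 ratio per length was 7.60 and 8.44 at 6 h and 1.49 and 1.71 at 24 h (exact permutation P = 0.333, the smallest possible). TK1 thus stayed above TK2 per length in all 4 libraries. At 24 h this order rests on the lengths used, 1681 bases for TK1 and 4824 for TK2. The normalized count of TK1 was then below that of TK2, and no other length was tried for these levels.

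DUT (ENSG00000128951, chromosome 15 of hg19 from 48623208 to 48635570) encodes dUTPase, which keeps uracil out of DNA and exists in a nuclear and a mitochondrial form. It had 2053 and 2172 normalized counts at 6 h and 1214 and 1200 at 24 h. Of the 5 genes of the deoxynucleotide steps it fell least, with a log2 change of -0.81 (SE 0.0712, edgeR adjusted P = 1.49e-10). Counts per gene add up both forms, so a change in either alone could not be seen.

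**Figure D1:**
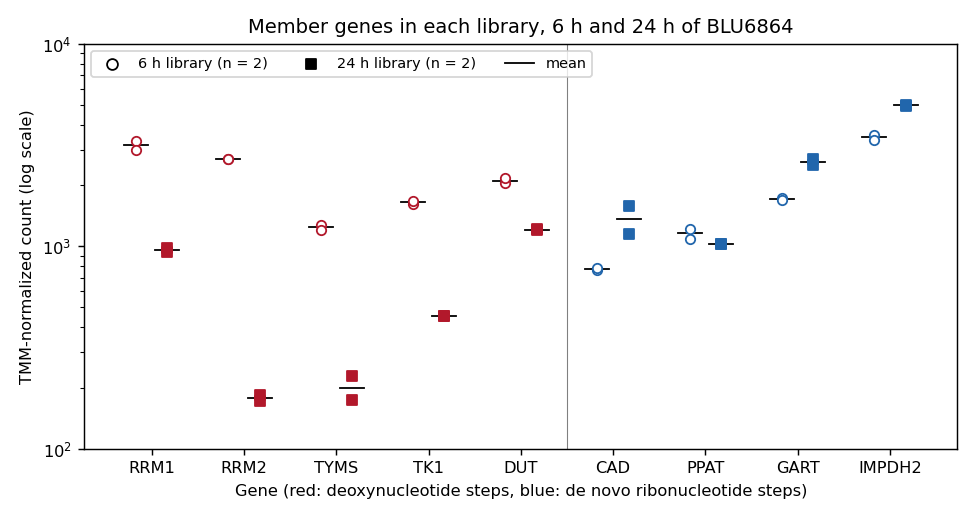
TMM-normalized counts (log scale) of the 9 members in each library, with open circles for the 6 h libraries, filled squares for the 24 h libraries, and bars for the means of 2. RRM2 goes from 2701 to 178 and TYMS from 1240 to 201, while CAD, GART, and IMPDH2 sit higher at 24 h and PPAT is nearly level.

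Among the de novo enzymes, CAD (ENSG00000084774, chromosome 2 of hg19 from 27440258 to 27466811) joins the opening 3 activities of pyrimidine synthesis in a single protein. It had 765 and 778 normalized counts at 6 h and 1153 and 1579 at 24 h. The time points did not overlap, but the 24 h libraries differed from each other more than those of any other member. The log2 change was 0.82 (SE 0.101, edgeR adjusted P = 6.37e-08), and it lay between 0.59 and 1.04 when each library was left out in turn.

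GART (ENSG00000159131, chromosome 21 of hg19 from 34876238 to 34915797), which carries 3 activities of purine synthesis, had 1727 and 1695 normalized counts at 6 h and 2701 and 2511 at 24 h. Its log2 change was 0.61 (SE 0.0711, edgeR adjusted P = 3.12e-08). The SON gene overlaps GART by 874 bases in the deposited table and had a log2 change of 0.25 (SE 0.0702). IMPDH2 (ENSG00000178035, chromosome 3 of hg19 from 49061758 to 49066841), the rate-limiting enzyme of guanine nucleotide synthesis, had 3539 and 3365 normalized counts at 6 h and 5003 and 4939 at 24 h. Its log2 change was 0.53 (SE 0.0707, edgeR adjusted P = 3.22e-07). GART and IMPDH2 thus rose by similar amounts, with replicates that lay close together.

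PPAT (ENSG00000128059, chromosome 4 of hg19 from 57259528 to 57301781) encodes the enzyme of the committed step of purine synthesis. It had 1225 and 1093 normalized counts at 6 h and 1026 and 1022 at 24 h. The groups did not overlap, but the gap between them was smaller than the distance between the 6 h libraries. The log2 change was -0.18 (SE 0.0781, edgeR adjusted P = 0.0486). The call was lost under most alternatives, with an adjusted P of 0.131 in DESeq2, 0.0974 with upper quartile scaling, and 0.399 without the first 6 h library.

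Compared per length, the order of the 9 messages changed (the plot of level per length). At 6 h IMPDH2 was the highest, at 1971 ± 70.3 normalized counts per kb (SD, n = 2). RRM1, DUT, and TK1 followed with 1006 ± 71.2, 987 ± 39.2, and 983 ± 27.1, which did not differ beyond their libraries. TYMS (769 ± 27.5), RRM2 (735 ± 4.16), GART (490 ± 6.48), PPAT (315 ± 25.4), and CAD (106 ± 1.23) came next, without overlap between neighbours. At 24 h the order was IMPDH2 (2839 ± 26.1), GART (747 ± 38.5), DUT (564 ± 4.49), RRM1 (305 ± 7.51), PPAT (278 ± 0.842), TK1 (269 ± 0.0817), CAD (187 ± 41.4), TYMS (124 ± 23.8), and RRM2 (48.5 ± 2.23). No neighbours overlapped at 24 h, although with 2 libraries the SD of a single gene is itself imprecise. The order also rests on the transcript lengths chosen, which were not varied. RRM2 thus went from a level near that of TYMS to the lowest of the 9.

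**Figure D2:**
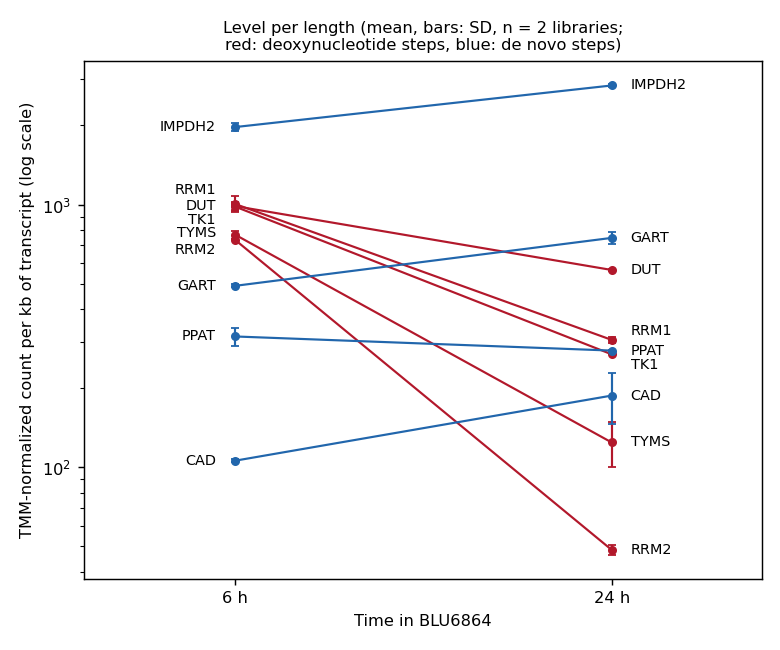
Normalized count per kb of the longest protein-coding transcript (log scale) at 6 h and 24 h, as the mean of 2 libraries with the SD, in red for the deoxynucleotide steps and in blue for the de novo steps. The red lines all fall, from 735 to 48.5 for RRM2, whereas IMPDH2 stays the highest at both times.

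The other enzymes of these pathways were read from lists written by hand, 55 genes of which 53 were tested. Of these, 22 were lower and 19 higher at an adjusted P under 0.05 from edgeR, and the median log2 change was -0.027, against 0.0029 over all genes tested. Shares of 22 and 19 in 53 are not far from the 32.6% and 33.0% of all genes, so the pathways as a whole did not move in a single direction.

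In the de novo purine list, 5 of 10 genes were lower and 4 higher. PFAS, which acts between the steps of GART, rose from 354 ± 2.93 (SD, n = 2) to 651 ± 37.2 normalized counts (log2 change 0.88, SE 0.0936). ATIC, which closes the ring of IMP, rose with a log2 change of 0.88 (SE 0.0745). Thus GART, PFAS, and ATIC, 3 enzymes on the path to IMP, were higher at 24 h. ADSL was too, with a log2 change of 0.25 (SE 0.0751). PAICS, whose gene lies head to head with that of PPAT, was lower, with a log2 change of -0.28 (SE 0.0706). PPAT, on the same path, was lower with -0.18, at the edge of the test. GMPS and PRPS2 were also lower, with -0.35 (SE 0.0706) and -0.27 (SE 0.0751), and IMPDH1 was higher, with 0.23 (SE 0.0739). The largest falls in this list were those of ADSS, which leads IMP to adenine nucleotides, with a log2 change of -0.75 (SE 0.0748), and of PRPS1, which makes the sugar phosphate PRPP, with -0.56 (SE 0.0796). The log2 change of ADSSL1 was 0.29 (SE 0.339, not called), at 21.0 and 26.0 mean normalized counts.

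The 4 remaining genes of de novo pyrimidine synthesis had positive log2 changes, as CAD did, and 3 of them were called. DHODH, the mitochondrial step, went from 109 ± 10.5 to 233 ± 11.5 normalized counts (SD, n = 2), with a log2 change of 1.10 (SE 0.139, edgeR adjusted P = 1.24e-07). The values were 0.55 for CTPS1, which makes CTP, and 0.34 for UMPS, which makes UMP. CTPS2 did not pass, with a log2 change of 0.092 (SE 0.0928).

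Around thymidylate synthesis and folate use, 5 of 9 genes were lower and 4 higher. DTYMK, the kinase that follows both TYMS and TK1, fell from 1877 ± 165 (SD, n = 2) to 626 ± 4.22 normalized counts, a log2 change of -1.59 (SE 0.0798, edgeR adjusted P = 1.24e-15). This value is near those of RRM1 and TK1. MTHFD2, of the mitochondrial folate route, fell with a log2 change of -1.20, and SHMT1, the cytosolic enzyme that loads folate for this cycle, rose from 1376 and 1360 normalized counts at 6 h to 2942 and 2862 (log2 change 1.09, SE 0.0705, edgeR adjusted P = 2.96e-13). MTHFD1 and MTHFD1L were also higher, with 0.64 and 0.72.

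In the salvage and kinase list, 7 of the 18 genes tested were lower and 5 higher. HPRT1, which recovers hypoxanthine and guanine, fell from 2931 ± 66.9 (SD, n = 2) to 1073 ± 27.4 normalized counts (log2 change -1.45, SE 0.0717, edgeR adjusted P = 8.62e-16). DCK, the deoxycytidine kinase, fell with a log2 change of -1.39 (SE 0.0748). The sharpest rise was that of CMPK2, a mitochondrial nucleotide kinase known as an interferon-induced gene, from 35.7 ± 2.97 to 203 ± 11.7 normalized counts (log2 change 2.51, SE 0.179). UCK2, a uridine and cytidine kinase, rose with a log2 change of 0.76. Of the 6 genes not called, UCK1, UCKL1, CDA, PNP, and GUK1 had log2 changes between -0.17 for CDA and 0.16 for UCKL1. NME2 is listed with 0 counts in every library. Its listed span (chromosome 17 of hg19 from 49230951 to 49249105) overlaps that of the near-identical NME1 (49230897 to 49239789). The log2 change of NME1 (-0.70) may therefore hold reads of either, and the 0 counts do not show that NME2 was silent.

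Of the 12 genes tested that break nucleotides down or clean the pool, 5 were lower and 3 higher. SAMHD1, a hydrolase that degrades deoxynucleotides, rose from 486 and 446 normalized counts at 6 h to 1230 and 1304, a log2 change of 1.45 (SE 0.0845, edgeR adjusted P = 3.12e-14). It thus moved opposite to both subunits of ribonucleotide reductase. XDH, which oxidizes purines to uric acid, had the largest fall, from 494 ± 17.5 to 60.7 ± 12.8 normalized counts (log2 change -3.02, SE 0.140). NUDT1, which clears oxidized purine nucleotides, fell with a log2 change of -1.91 (SE 0.127), and NT5E, an ectonucleotidase of the cell surface, with -1.29 (SE 0.0803). NT5C, DPYD, TYMP, and DCTPP1 were not called, with log2 changes of 0.16, 0.054, 0.34, and 0.18, and NT5M, with 6 to 8 counts in each library, was not tested.

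**Figure D3:**
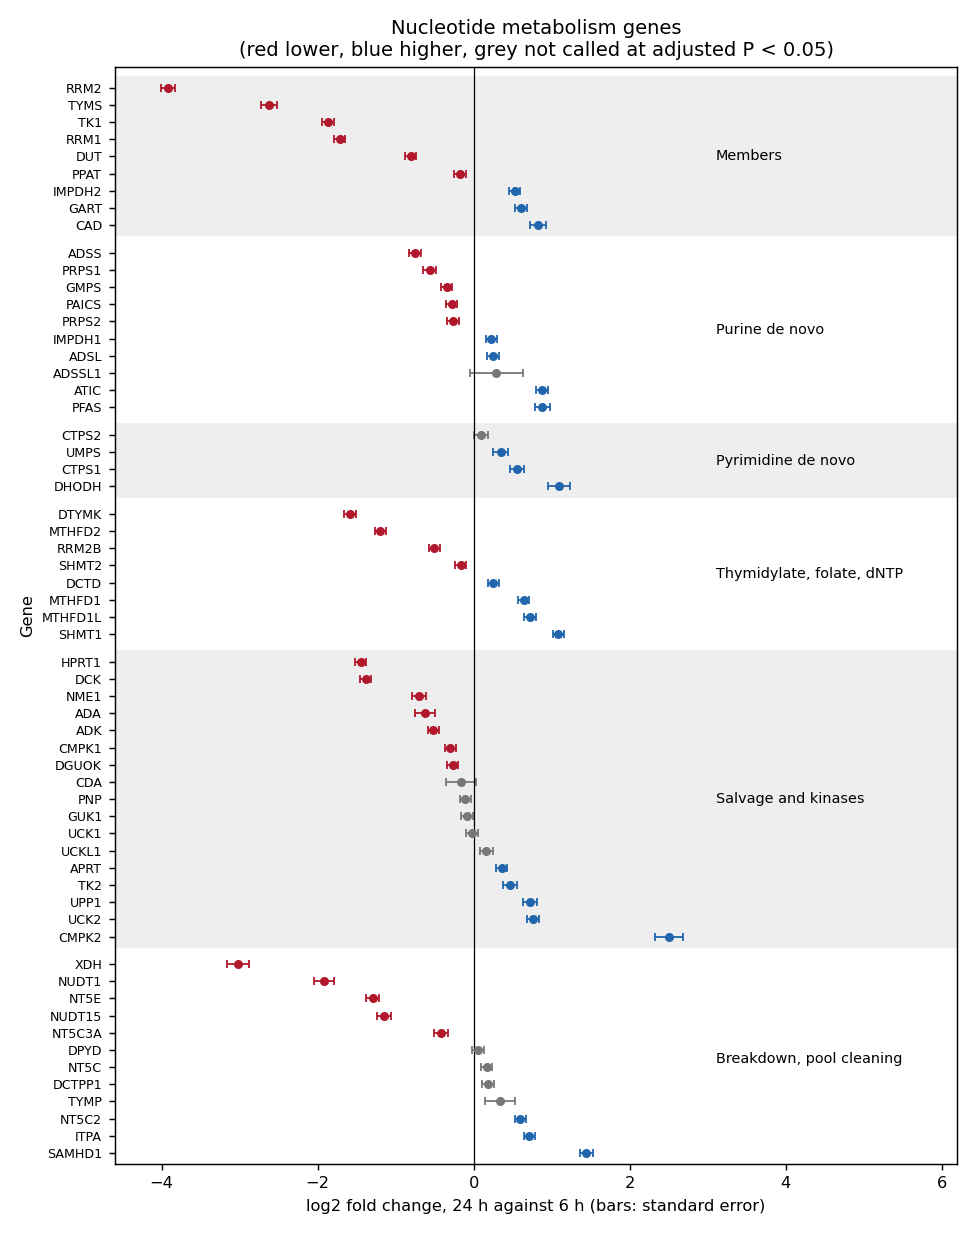
Log2 fold change between 24 h and 6 h, with its SE, for the 9 members and the tested genes of 5 other nucleotide lists, less 2 that are not shown, in red where lower and in blue where higher at an adjusted P under 0.05. The members span from -3.92 for RRM2 to 0.82 for CAD, and each of the other lists except de novo pyrimidine synthesis holds both colours.

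For comparison, 14 genes of DNA replication were read. They encode the MCM helicase subunits MCM2 to MCM7, the loading factors CDC6 and CDT1, CDC45, the GINS subunits, and PCNA. At an adjusted P under 0.05 from edgeR, 14 of 14 were lower, beside 32.6% of all genes tested. Their log2 changes were -2.01 at the median, with a range from -4.57 for CDC45 to -0.51 for MCM6. RRM2 and TYMS, at -3.92 and -2.63, lie beyond that median, and RRM1, TK1, and DUT short of it. Of 13 E2F and MYC family regulators and partners, 7 were lower and 4 higher by that cutoff, beside 32.6% and 33.0% of all genes. E2F1, which drives S phase genes, fell from 287 to 29.1 mean normalized counts (log2 change -3.30, SE 0.173), and the log2 change was -3.95 for E2F8, -3.34 for E2F2, and 0.37 for E2F3. MYC, which is known to act on de novo nucleotide genes among others, rose from 431 and 472 raw counts at 6 h to 2603 and 2722 at 24 h (log2 change 2.51, SE 0.0773, edgeR adjusted P = 2.35e-20). TFDP1 and MXI1 were not called, with -0.057 and 0.0047. Whether these factors had a part in the members' changes was not tested.

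**Figure D4:**
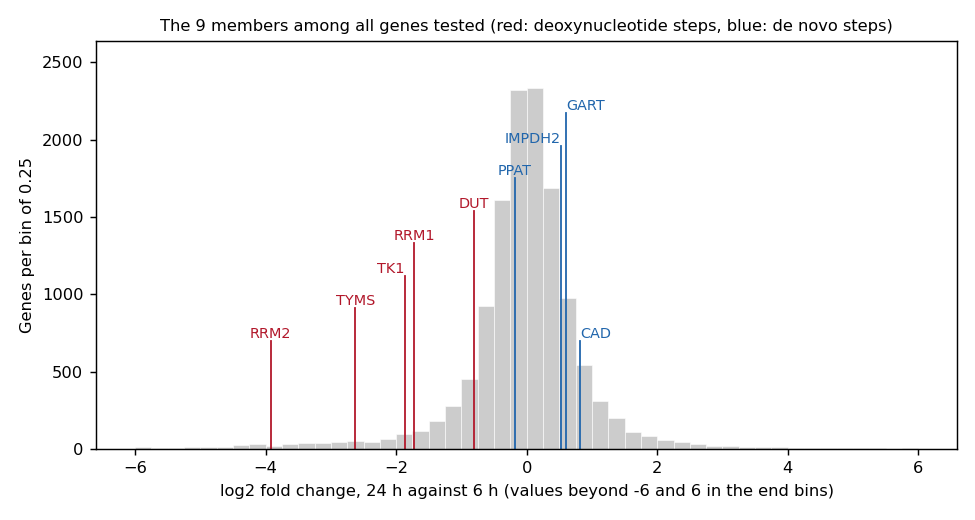
Histogram of the log2 change (24 h against 6 h) of the 12876 genes tested, in bins of 0.25, with a line for each member, red for the deoxynucleotide steps and blue for the de novo steps. RRM2 and TYMS lie in the far left tail, the 112th and 294th lowest values, and PPAT lies close to the centre.

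The libraries were checked against the markers of their labelled cell type. Of 8 thyroid genes, PAX8 had between 19124 and 22978 counts in each library, and FOXE1, TG, and DIO1 were detected, but NKX2-1 and TSHR had 0 counts in every library and SLC5A5 at most 7. The 6 white blood cell markers summed to between 2 and 7 counts in a library. Of 4 fibroblast markers, DCN had at most 1 count, and the sum over the list went from 350 to 419 counts at 6 h to 194 to 207 at 24 h. Within that list PDGFRB was lower (log2 change -1.48, SE 0.129) and LUM higher (log2 change 0.75, SE 0.220) at 24 h. In bulk RNA, fewer cells in S phase and less of a message in each cell cannot be told apart. Reads of processed copies of RRM2, DUT, and other members elsewhere in the genome may also have been assigned to them or lost, depending on the authors' counting.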

How the data were processed

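RNA of TPC1 cells was sequenced at 6 h and 24 h of BLU6864, with 2 libraries per time point. The authors aligned reads with STAR, for which the submitters' processing notes give version 2.3 and the build hg19, while the methods name a later version and no build for these libraries, and the counting program and annotation are not given in the sources used here. The authors deposited raw counts per gene, which were used here, and also a size-factor normalized signal, a log2 fold change, a test score, and p-values from DESeq2, which were not used.

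Counts were fitted with edgeR 4.0.16 in R 4.3.3 (filterByExpr, TMM, quasi-likelihood test, time as the factor). P was adjusted by Benjamini-Hochberg over the 12876 genes tested, which hold 99.97% of counts. The procedure was also run on simulated counts with a common dispersion and 200 changed genes of 12756. Of the changed genes 100% were recovered, and 6.1% of calls were of unchanged genes. A far larger share of genes was called in the data, so the simulation does not give the error rate there. Normalized counts are counts scaled to the mean TMM-adjusted library size, and standard errors are the log2 change over the root of F. Transcript lengths came from GENCODE v44, and promoter sequences from RefSeq. Alternatives were DESeq2 1.42.0, other scalings and filters, a replicate block, other cutoffs, and each library left out. Merged exon lengths were tried only on the changes in the ratios, where length cancels, so they could not alter the outcome. Levels and orders per length were not recomputed with them. Replicates differed by more than sampling noise (a chi-square of 10.4 and 7.91 per degree of freedom) and were kept as 2, but nothing states that they are separate cultures, so P measures the spread between libraries, which may be technical. The members and lists were chosen with earlier results of these data known. Named were all members, and of each list the untested genes, the 4 largest changes, the genes not called, and genes overlapping a member. Others, such as PAICS, ADSL, GMPS, PRPS2, IMPDH1, UMPS, MTHFD1, MTHFD1L, NME1, E2F3, and MCM6, were named after their values were seen. So was the downstream start of DUT. A few genes of these lists stay in the counts but are not reported here by name. Plots were drawn with matplotlib 3.10.9.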

Additional observations from a re-analysis of the deposited data

How the results depend on the processing

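Of the 9 members, 8 kept their direction and their call under 6 other settings and with each of 4 libraries left out, fits in which the lone library is assumed to vary like the others. PPAT kept its direction, but its call held in 3 of these 10 fits. The number of members lower at 24 h was thus between 5 and 6, and that of members higher was 3 throughout. With the cutoffs of the methods, the de novo purine list had 2 genes lower and 2 higher in place of 5 and 4, and the salvage list had 3 higher in place of 5. For the breakdown list, 5 genes in place of 3 were higher with upper quartile scaling and with the replicate block. These cutoffs also require a size of change. For the breakdown list the cause was not tested. The replicate numbers are shared by both time points, but nothing states what they mark, and their deviations correlated at 0.0844. With the replicate block, 4448 genes were lower and 4524 higher, against 4196 and 4247, and no call of a member changed. Library size alone, which moved the median of all genes most, set it at -0.0398. Depth was not the limit for the members, whose lowest raw count was 173 in RRM2.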
